A study of Homo sapiens with 18 samples.

Results

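Amiloride treatment of the human plasma cell leukemia line JJN3 was measured by poly(A) RNA sequencing in 6 of the 18 libraries of a study of myeloma cell lines. The libraries were taken by their labels, and every gene in the count files was considered. The 3 amiloride libraries came from JJN3 cells given 0.4 mM amiloride for 24 h. The 3 DMSO libraries came from untreated JJN3 cells that were given DMSO, for a time that the labels leave out. Both groups were grown in RPMI medium with 10% fetal bovine serum. Nothing in the labels tells if the libraries within a group are separate cultures, and p-values therefore measure only the spread between these samples. The other line, KMS12-BM, was grown in 20% serum with 0.1 mM amiloride for 24 h or with DMSO, in 3 libraries per group, and enters only where the response of JJN3 is set against it. The 3 libraries of each line treated with 0.4 mM TG003, a splicing kinase inhibitor, for 24 h were in the fits but in none of the contrasts. They took part in the filter on low counts, the scaling and the estimate of the spread, those of KMS12-BM only in the comparison of the lines. Those of JJN3 stand apart in read placement, with 0.076% to 0.094% of gene reads in processed pseudogenes, and a fit without them called 6227 genes in place of 6842.

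Amiloride, used as a diuretic, closes epithelial sodium channels and, at higher concentrations, inhibits sodium-proton exchangers. JJN3 is a line of malignant plasma cells, the antibody-secreting end stage of the B cell lineage, which depends on a large endoplasmic reticulum (ER). Several of the pathways described here work through a small number of sensors. Hypoxia-inducible factors switch on glucose uptake, glycolysis and pyruvate diversion when oxygen is low, and SREBP factors switch on sterol genes when ER cholesterol is low. ATF4 switches on amino acid and folate enzymes when translation initiation is restrained. The mitochondrial genome is read as long transcripts from each of its strands, which are then cut into separate RNAs.

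The amiloride libraries held 23707695 to 41755385 reads in genes and the DMSO libraries 25265042 to 37551639. The lowest correlation between libraries, over log CPM (counts per scaled 1e6 reads) of tested genes, was 0.9936 within amiloride and 0.9945 within DMSO, and those between the groups lay from 0.9792 to 0.9859. The first principal component of the 6 libraries held 67.3% of the variance and separated the groups. The second held 10.9% and set amiloride replicate 3 (-19.6) apart from the other amiloride libraries (6.22 and 14.8). Mitochondrially encoded genes held 0.709% to 1.03% of gene reads with amiloride and 2.06% to 2.61% with DMSO. Processed pseudogenes held 4.22% to 4.35% with amiloride and 5.11% to 5.28% with DMSO. Reads placed at more than 1 site in the genome made up 14.7% to 15.2% of records with amiloride and 16.6% to 17.4% with DMSO.

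The plasma cell label matched the markers. The 12 listed plasma cell markers summed to 4802, 5093 and 5490 CPM with amiloride and to 5354, 5215 and 5548 CPM with DMSO. A large part of each sum was JCHAIN, with 2351, 2703 and 3439 CPM with amiloride and 2275, 2518 and 2716 CPM with DMSO. Of the 12 markers, 4 were called lower and 0 higher (median -0.35). The levels were uneven, with CD38 at 3.27 to 6.55 CPM and SLAMF7 at 0.918 to 2.74 CPM over the 6 libraries. Markers of B cells that have not become plasma cells summed to under 1 CPM in every library, and CD3D, GNLY, MPO, CDH5 and FCER2 had 0 reads in all 6. Among markers of other cells, those above 20 CPM were CD247, a T cell receptor chain, HBB, a globin chain, and EPCAM, an epithelial adhesion protein. CD247 had 98.2, 93.6 and 86.5 CPM with amiloride and 146, 132 and 141 CPM with DMSO, while CD3D and CD3G had no read. Over the 6 libraries CD3E had 1.28 to 2.24 CPM and CD2 0.298 to 0.763 CPM. CD8A was called higher (log2 2.20 ± 0.42, adjusted p = 0.00109). It was near the floor, with means of 0.424 CPM with amiloride and 0.0873 CPM with DMSO. HBB had 40.2 to 62.9 CPM with amiloride and 49.0 to 64.6 CPM with DMSO. EPCAM was at 0.54 ± 0.12 on the log2 scale (adjusted p = 0.00329). CD247 fell by 0.59 ± 0.08, and the part of such markers in other changes was not tested.

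Of 15704 tested genes, 6842 (43.6%) differed between amiloride and DMSO at an adjusted p under 0.05 in edgeR's quasi-likelihood test. Of these, 3092 (19.7% of those tested) were higher with amiloride and 3750 (23.9%) were lower. Most changes were small: 437 genes were higher and 684 lower by at least 2-fold, and 81 and 70 by at least 4-fold. The median log2 fold change of all tested genes was -0.03. The CPM ranges of the groups did not overlap in 8166 genes (52% of those tested). In what follows a log2 fold change is amiloride over DMSO, followed by its standard error after ±, and a gene is called where its adjusted p was under 0.05. All adjusted p are from edgeR over all tested genes. Counts of called members in the gene lists are to be read against 19.7% higher and 23.9% lower over all tested genes. In bulk RNA, fewer cells of a kind and less RNA per cell cannot be told apart.

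The largest rises outside the mitochondrial genome described here were in a nucleic acid sensor and a set of long noncoding RNAs. ZBP1, a sensor of Z-form nucleic acids that can start necroptosis (chromosome 20, 56178902 to 56195632, GRCh37), had 13.2, 10.1 and 12.6 CPM with amiloride and 2.70, 2.15 and 2.41 CPM with DMSO (log2 2.31 ± 0.15, adjusted p = 7.67e-07). Its amiloride libraries were all high, but the genes with the largest rises and falls were chosen among those whose groups do not overlap, so that their separation is a description. ASB2, a substrate receptor of ubiquitin ligases, rose by 1.82 ± 0.11 and CTSZ, a lysosomal cysteine protease, by 1.76 ± 0.11. The noncoding RNAs LINC00899 (2.14 ± 0.13), ZNNT1 (1.89 ± 0.19), SNHG26 (1.85 ± 0.10), LINC00944 (1.68 ± 0.15) and TMEM167B-DT (1.53 ± 0.14) were also among the 12 largest rises, together with ATF5 and CYP1B1, described with their pathways.

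The largest falls in nuclear genes were in PFKFB4, PDK1 and ALDOC, described with glycolysis, and in several genes of unrelated roles. CDHR1, a cadherin of photoreceptors (chromosome 10, 85954293 to 85979377), had 23.4, 23.9 and 17.5 CPM with amiloride and 91.9, 98.4 and 113 CPM with DMSO (-2.23 ± 0.13, adjusted p = 6.48e-07). Its neighbour GPR15LG, a secreted ligand of a chemokine-like receptor (chromosome 10, 85933557 to 85945050), had 5.92, 3.52 and 0.844 CPM with amiloride and 15.2, 13.1 and 21.5 CPM with DMSO (-2.35 ± 0.60, adjusted p = 0.0175). The amiloride libraries of GPR15LG spread widely, replicate 3 being the lowest, and its call was lost without amiloride replicate 2 (-2.43). CPXM1, a carboxypeptidase-like protein, was at -2.55 ± 0.32 and CMAHP, a pseudogene of a sialic acid hydroxylase, at -2.19 ± 0.20. RPS4XP3, a processed copy of a ribosomal protein gene, was at -2.59 ± 0.22, and its reads can be shared with near-identical copies.

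**Figure D1:**
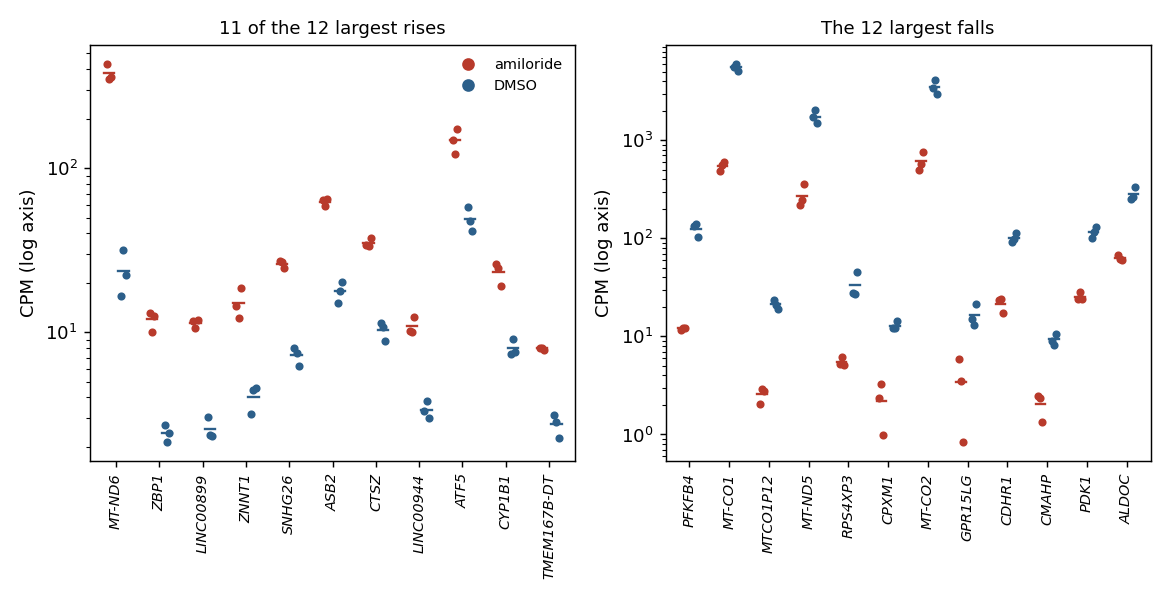
CPM on a log axis in each library for 11 of the 12 largest rises (left) and the 12 largest falls (right) among called genes with a mean of at least 5 CPM, amiloride in red left of DMSO in blue, with bars at the group means. The genes shown were chosen among those whose groups do not overlap, and GPR15LG has the widest spread within amiloride.

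Mitochondrial messengers fell on 1 strand and rose on the other. All 12 messengers encoded by the heavy strand template were called lower, with a median log2 of -1.89 against -0.03 over all tested genes. MT-CO1, the catalytic core of cytochrome c oxidase (chromosome M, 5904 to 7445), had 481, 564 and 596 CPM with amiloride and 5546, 6065 and 5036 CPM with DMSO (-3.34 ± 0.14, adjusted p = 1.18e-07). MT-ND6, a complex I subunit and the single messenger of the opposite strand (chromosome M, 14149 to 14673), had 434, 348 and 358 CPM with amiloride and 16.6, 31.5 and 22.4 CPM with DMSO (4.01 ± 0.45, adjusted p = 0.000473). The amiloride libraries were low for MT-CO1 and high for MT-ND6. MT-ND6 lies between MT-ND5 (-2.68 ± 0.24) and MT-CYB (-2.07 ± 0.23). The library kit marks strand, but the strand setting of the counting is not given in the sources used here, so reads of MT-ND6 and of RNA antisense to it cannot be told apart.

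The size of the fall was uneven along the mitochondrial genome. The 2 genes just behind the ribosomal RNAs fell least, MT-ND1 by 1.45 ± 0.13 on the log2 scale and MT-ND2 by 0.73 ± 0.20 (adjusted p = 0.0177). MT-ND2 had 511, 619 and 825 CPM with amiloride and 1014, 1265 and 955 CPM with DMSO, so that the nearest libraries of the groups were 825 and 955 CPM, and its call was lost without amiloride replicate 2 (-0.69) or DMSO replicate 2 (-0.60). From MT-CO1 to MT-CYB the changes ran from -3.34 to -1.73, with MT-CO2 at -2.51 ± 0.20. The ribosomal RNAs were not called. MT-RNR2, the large subunit RNA, had 2353, 2137 and 3630 CPM with amiloride and 2030, 2644 and 2627 CPM with DMSO (0.15 ± 0.21, adjusted p = 0.583), and MT-RNR1 was at 0.42 ± 0.24 (adjusted p = 0.2). Amiloride replicate 3 was the highest library for both, and MT-RNR2 was at -0.12 without it. All 4 tested nuclear copies of mitochondrial genes were lower (median -2.37), MTCO1P12 (chromosome 1, 566454 to 567996) at -3.02 ± 0.22. Whether their reads came from the mitochondrial genes was not tested.

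**Figure D2:**
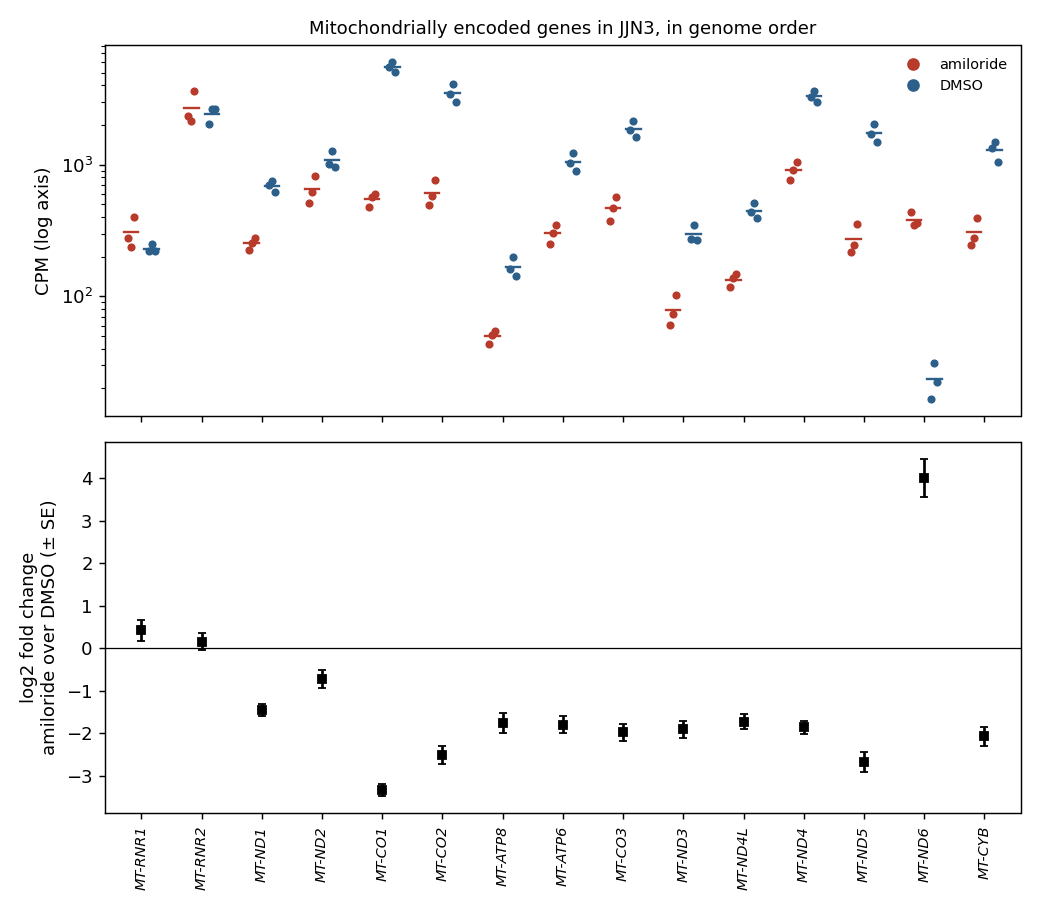
Upper panel, CPM on a log axis per library for the 15 mitochondrially encoded genes in genome order, amiloride in red left of DMSO in blue, bars at the means; lower panel, log2 fold change of amiloride over DMSO with its standard error. The 12 heavy-strand messengers lie below 0, the ribosomal RNAs near 0 and MT-ND6 at 4.01.

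Nuclear genes for mitochondrial gene expression were more often called higher than lower. Of 31 tested factors of mitochondrial transcription and RNA handling, 14 were higher and 4 lower (median 0.10), or 2 lower without DMSO replicate 2. SLIRP, which with LRPPRC stabilises mitochondrial messengers, had 19.1, 9.31 and 21.5 CPM with amiloride and 7.90, 8.09 and 6.79 CPM with DMSO (higher with amiloride, adjusted p = 0.0109), while LRPPRC itself fell by 0.28 ± 0.08. Replicate 2 of amiloride lay close to the DMSO libraries for SLIRP. MTERF2, of the termination factor family, fell by 0.84 ± 0.16, and TFAM, which packages mitochondrial DNA and starts its transcription, was at 0.06 ± 0.08 (adjusted p = 0.524). TEFM, the elongation factor of mitochondrial transcription, rose by 0.39 ± 0.08 and FASTKD2 by 0.47 ± 0.09. Of 75 mitochondrial ribosomal proteins, 25 were higher and 5 lower (median 0.21), among them MRPL13 (0.80 ± 0.16), MRPS33 (0.72 ± 0.08) and MRPL2 (0.71 ± 0.11).

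Nuclear subunits of the respiratory chain were mostly not called. Of 37 in complex I, 4 were higher and 4 lower (median 0.10), and of 39 in complexes II to V, 5 were higher and 6 lower (median 0.10), or 9 and 4 without amiloride replicate 3. NDUFB1, a small complex I subunit, had 63.6, 64.5 and 56.3 CPM with amiloride and 25.6, 27.5 and 25.1 CPM with DMSO (1.24 ± 0.09, adjusted p = 9.33e-07). ATP5ME, a small subunit of ATP synthase, rose by 1.29 ± 0.11 and COX7B of cytochrome c oxidase by 0.70 ± 0.07. SDHA, the catalytic subunit of complex II, fell by 0.67 ± 0.09.

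Genes of glycolysis fell nearly along the whole pathway. Of 23 tested transporters, enzymes and regulators, 19 were lower and 0 higher, with a median of -0.75. Summed over the list, the level was 18714, 17058 and 17425 CPM with amiloride and 29414, 29669 and 32854 CPM with DMSO. PFKFB4, a bifunctional enzyme that sets the activator of phosphofructokinase (chromosome 3, 48555117 to 48599448), had 11.6, 12.3 and 12.3 CPM with amiloride and 134, 140 and 104 CPM with DMSO (-3.38 ± 0.23, adjusted p = 1.17e-05). ALDOC, the brain-type aldolase (chromosome 17, 26900133 to 26903966), had 67.7, 61.9 and 60.0 CPM with amiloride and 252, 267 and 336 CPM with DMSO (-2.17 ± 0.11, adjusted p = 1.6e-07). In both genes the amiloride libraries lay close together. Among the abundant enzymes, GAPDH had 4735, 4208 and 4349 CPM with amiloride and 8232, 8310 and 9470 CPM with DMSO (-0.97 ± 0.09, adjusted p = 5.82e-06). GAPDH is often used to scale other measurements, and ACTB, used likewise, was at 0.07 ± 0.08 (adjusted p = 0.489).

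The fall was graded between isozymes and steps. At the aldolase step ALDOA fell by 0.98 ± 0.09 against 2.17 for ALDOC, and at the enolase step ENO1 fell by 0.68 ± 0.08 and ENO2 by 1.45 ± 0.11. At the phosphofructokinase step PFKL fell by 0.73 ± 0.10 and PFKP by 0.50 ± 0.08, while PFKM was at 0.00 ± 0.11 (adjusted p = 0.985). HK2 fell by 0.82 ± 0.08, while HK1, the housekeeping hexokinase, was at 0.16 ± 0.12 (adjusted p = 0.297). GPI (-1.07 ± 0.08), PGAM1 (-0.98 ± 0.07), PGK1 (-0.81 ± 0.08) and LDHA (-0.75 ± 0.08) fell more than TPI1 (-0.28 ± 0.07), PKM (-0.44 ± 0.08) and the glucose transporter SLC2A1 (-0.54 ± 0.12) by these point values; differences between genes were not tested. The lactate exporter SLC16A3 fell by 0.53 ± 0.09, and SLC16A1 was at 0.01 ± 0.07 (adjusted p = 0.957).

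Hypoxia-inducible genes outside glycolysis fell further. Of 27 tested, 25 were lower and 1 higher, with a median of -1.20. PDK1, which switches off pyruvate dehydrogenase (chromosome 2, 173420101 to 173473397), had 24.1, 28.1 and 24.1 CPM with amiloride and 102, 115 and 132 CPM with DMSO (-2.19 ± 0.10, adjusted p = 1.18e-07). NDRG1, a stress-induced protein and the most abundant member, had 944, 838 and 1035 CPM with amiloride and 1951, 1981 and 2244 CPM with DMSO (-1.13 ± 0.09, adjusted p = 2.31e-06). NDRG1 did not overlap between the groups. MIR210HG, the host transcript of the hypoxia microRNA, was at -2.17 ± 0.14, EGLN3, an oxygen-sensing prolyl hydroxylase, at -1.86 ± 0.16, P4HA1, a collagen prolyl hydroxylase, at -1.59 ± 0.12, and BNIP3L, a mitophagy receptor, at -1.34 ± 0.07. VEGFA, the angiogenic factor, had 110, 115 and 140 CPM with amiloride and 210, 260 and 316 CPM with DMSO (-1.11 ± 0.15, adjusted p = 0.000217). DDIT4, an inhibitor of mTORC1, fell by 1.64 ± 0.37, and its DMSO libraries spread from 171 to 454 CPM. The exception was HIF1A, the oxygen-regulated subunit itself, which had 118, 113 and 129 CPM with amiloride and 85.9, 82.5 and 88.9 CPM with DMSO (0.49 ± 0.07, adjusted p = 0.000136).

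**Figure D3:**
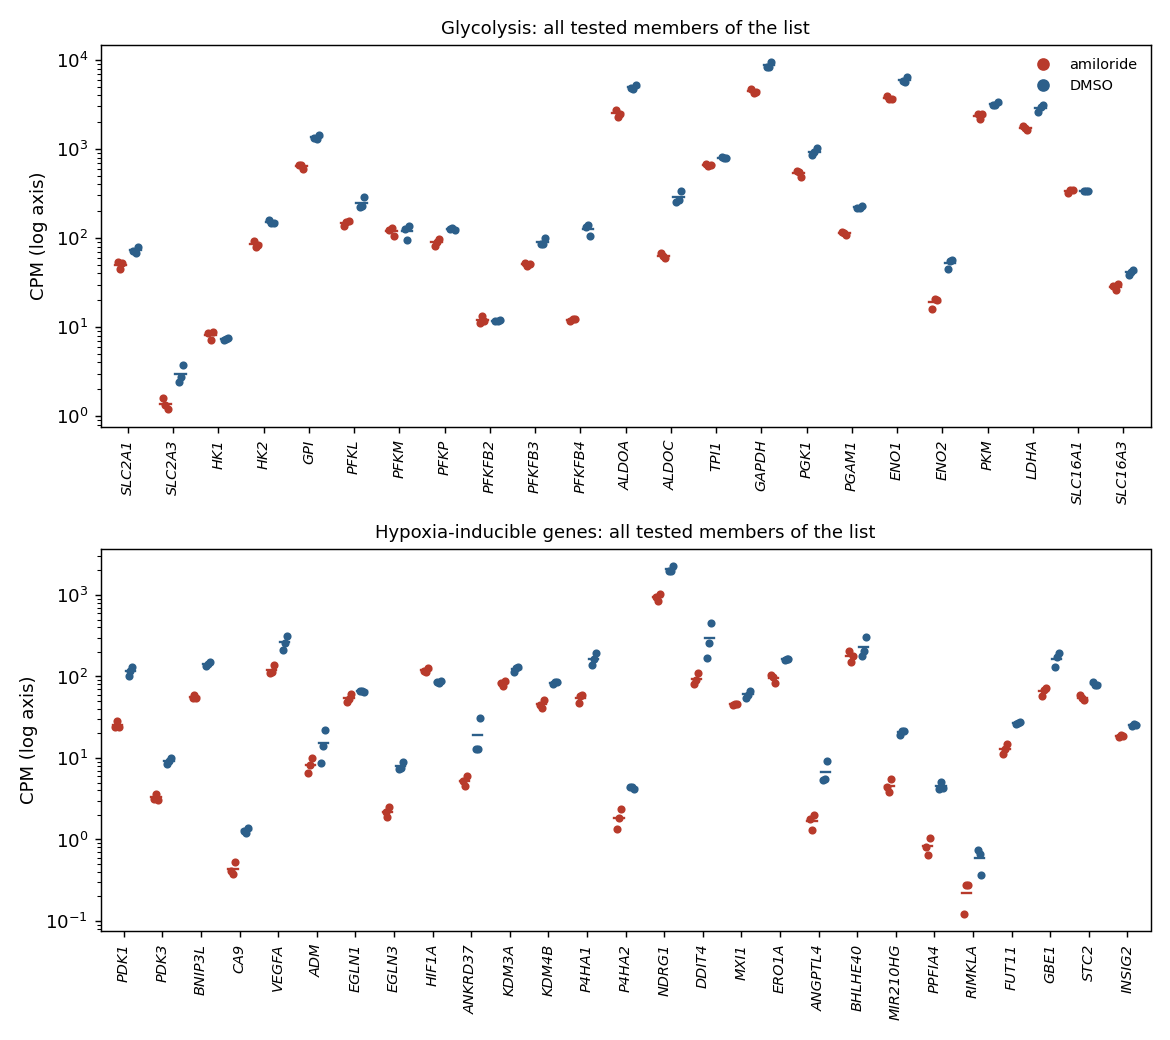
CPM on a log axis per library for every tested gene of the glycolysis list (upper) and of the hypoxia-inducible list (lower), amiloride in red left of DMSO in blue, with bars at the group means. Most genes sit lower with amiloride, PFKFB4 most of all, and HIF1A sits higher.

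The promoters of PFKFB4 and ALDOC are shown because the core of the hypoxia response element can be looked for in them. RefSeq windows of 300 bases (GRCh38.p14, from 250 bases before to 50 after the gene start) were found for 39 of the 44 called lower members of the glycolysis and hypoxia lists. The letters searched were ACGTG and GCGTG on both strands, and capitals mark each match in the windows of PFKFB4 (chr3:48556754-48557053, minus strand) and ALDOC (chr17:28576846-28577145, minus strand), in which 2 of the 5 matches overlap as CACGTG.
PFKFB4: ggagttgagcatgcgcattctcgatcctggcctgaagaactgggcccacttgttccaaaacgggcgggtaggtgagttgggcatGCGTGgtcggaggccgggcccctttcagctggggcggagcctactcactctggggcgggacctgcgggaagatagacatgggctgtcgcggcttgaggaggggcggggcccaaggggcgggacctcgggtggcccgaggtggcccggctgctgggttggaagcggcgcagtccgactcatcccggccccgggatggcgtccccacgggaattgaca
ALDOC: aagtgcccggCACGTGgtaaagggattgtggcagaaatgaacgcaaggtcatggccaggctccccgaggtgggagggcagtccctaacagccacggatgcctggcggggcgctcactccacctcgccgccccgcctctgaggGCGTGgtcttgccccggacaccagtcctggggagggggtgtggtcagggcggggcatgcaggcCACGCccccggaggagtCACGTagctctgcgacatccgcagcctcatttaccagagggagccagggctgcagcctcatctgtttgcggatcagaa
A match was present in 31 of the 39 windows (79.5%), against 48.4% of all 27305 windows, and the window of PDK1 had none. The same letters were also present in 15 of 19 windows of called lower sterol genes (78.9%) and 20 of 29 of called lower mitosis genes (69%). Other elements were searched in the same windows. The sterol response element was in 1 of 19 windows of called lower sterol genes (5.26%) and 1.15% of all. It was in 2 of 39 of the glycolysis and hypoxia windows (5.13%). The element named CARE was in 1 of 9 windows of called lower serine, folate and asparagine genes (11.1%) and 3.67% of all. CACGTG was in 6 of 39 glycolysis and hypoxia windows (15.4%) and 7.43% of all. A match is a description of the letters and not evidence of a bound factor.

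Sterol synthesis genes fell, together with the brake on their own pathway. Of 11 tested enzymes from acetyl-CoA to squalene, 9 were lower and 1 higher (median -0.69), and of 11 from lanosterol to cholesterol, 8 were lower and 0 higher (median -0.36; 5 lower without DMSO replicate 1). INSIG1, the ER protein that holds back SREBP and is itself an SREBP target, had 774, 806 and 608 CPM with amiloride and 2642, 3178 and 4035 CPM with DMSO (-2.17 ± 0.20, adjusted p = 3.91e-05). HMGCS1, an early enzyme of sterol synthesis, had 176, 199 and 201 CPM with amiloride and 447, 515 and 553 CPM with DMSO (-1.40 ± 0.09, adjusted p = 7.87e-07). Neither gene overlapped between the groups. MVD (-1.30 ± 0.12), DHCR7, the last step of cholesterol synthesis (-1.15 ± 0.08), MSMO1 (-1.11 ± 0.09), LSS (-0.81 ± 0.08) and SQLE (-0.69 ± 0.09) followed.

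Of 16 genes of SREBP control and lipoprotein handling, 8 were lower and 3 higher (median -0.29). The factor genes fell, SREBF1 by 0.85 ± 0.10 and SREBF2 by 0.37 ± 0.07. ABCA1, which exports cholesterol, had 10.4, 8.44 and 9.38 CPM with amiloride and 3.66, 4.66 and 4.99 CPM with DMSO (1.08 ± 0.14, adjusted p = 5.76e-05). Of 17 genes of fatty acid synthesis, 9 were lower and 3 higher (median -0.28). The desaturases FADS2 (-1.16 ± 0.07) and SCD (-1.06 ± 0.09) fell more in point value than FASN, the synthase (-0.59 ± 0.12). The members that rose were GPAM, which starts glycerolipid synthesis (0.95 ± 0.09), ELOVL6, an elongase (0.60 ± 0.10), and LPIN1, a phosphatidate phosphatase (0.54 ± 0.07).

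Amino acid and one-carbon enzymes that ATF4 is known to control fell. Core genes of the integrated stress response were called in both directions, at shares near those of all tested genes. Of 17 genes of serine, folate and asparagine synthesis, 13 were lower and 1 higher (median -0.69). PHGDH, the first enzyme of serine synthesis, had 52.6, 63.6 and 31.2 CPM with amiloride and 195, 197 and 160 CPM with DMSO (-1.91 ± 0.23, adjusted p = 0.000365). ALDH1L2, a mitochondrial folate enzyme, had 21.7, 27.8 and 20.8 CPM with amiloride and 80.9, 81.3 and 64.3 CPM with DMSO (-1.69 ± 0.14, adjusted p = 5.82e-06). The groups were apart for both, and amiloride replicate 3 was the lowest library for each. PSAT1 fell by 0.81 ± 0.17, ASNS, asparagine synthetase, by 0.80 ± 0.14 and MTHFD2 by 0.69 ± 0.09. Of 13 amino acid transporters, 8 were lower and 1 higher (median -0.41), with SLC7A11, the cystine importer, at -1.03 ± 0.18.

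Of 19 core genes of the stress response, 4 (21.1%) were higher and 6 (31.6%) lower (median -0.07), against 19.7% and 23.9% of all tested genes. ATF4 had 392, 393 and 373 CPM with amiloride and 443, 434 and 391 CPM with DMSO (-0.13 ± 0.07, adjusted p = 0.173), and DDIT3, which encodes CHOP, was at 0.26 ± 0.14 (adjusted p = 0.161). The groups overlapped in both. ATF5, a relative of ATF4 linked to the mitochondrial stress response, had 149, 122 and 173 CPM with amiloride and 57.7, 47.8 and 41.5 CPM with DMSO (1.60 ± 0.14, adjusted p = 1.14e-05). CHAC1, which degrades glutathione, fell by 1.42 ± 0.23 and VLDLR by 1.69 ± 0.19. Of 20 cytosolic tRNA synthetases, 5 were higher and 2 lower (median -0.09), from RARS1 (0.85 ± 0.09) to CARS1 (-0.67 ± 0.09). The counts were 4 higher and 4 lower without amiloride replicate 2 or DMSO replicate 3, and 1 was lower without any other single library.

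Genes of the secretory apparatus fell in part. Of 24 ER chaperones and folding enzymes, 16 were lower and 1 higher (median -0.36). P4HB, protein disulfide isomerase, had 747, 697 and 662 CPM with amiloride and 1272, 1158 and 1473 CPM with DMSO (-0.89 ± 0.10, adjusted p = 2.12e-05). PDIA6 was at -0.54 ± 0.09, PDIA4 at -0.55 ± 0.10, ERO1A, their oxidase, at -0.76 ± 0.08 and CRELD2 at -0.93 ± 0.12. Of 33 genes of ER-associated degradation and its stress sensors, 10 were higher and 10 lower (median -0.04), or 6 and 10 without amiloride replicate 3. The sensor ERN1 fell by 0.54 ± 0.09 and SEL1L, a degradation adaptor, by 0.53 ± 0.10, while SEC62, a translocon subunit, rose by 0.54 ± 0.06.

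Most plasma cell factors did not pass the test. Of 15 plasma cell transcription factors and regulators, 1 (6.67%) was higher and 4 (26.7%) lower (median 0.04), against 19.7% and 23.9% of all tested genes. IRF4, on which myeloma cells depend, had 984, 867 and 681 CPM with amiloride and 1053, 877 and 839 CPM with DMSO (-0.13 ± 0.12, adjusted p = 0.417; 0.00 without amiloride replicate 3). PRDM1, encoding Blimp-1, was at -0.35 ± 0.14 (adjusted p = 0.0712), SDC1, encoding CD138, at -0.20 ± 0.08 (adjusted p = 0.068) and TNFRSF17, encoding BCMA, at -0.50 ± 0.23 (adjusted p = 0.12). In IRF4, PRDM1 and TNFRSF17 the lowest of the 6 libraries was amiloride replicate 3. XBP1, the factor that expands the ER, fell by 0.34 ± 0.09 and POU2AF1, a coactivator of the B lineage, by 0.38 ± 0.08. MZB1, an ER cochaperone of antibody assembly, had 94.8, 105 and 92.7 CPM with amiloride and 197, 167 and 238 CPM with DMSO (-1.04 ± 0.12, adjusted p = 3.42e-05).

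Of 21 surface genes of myeloma, 2 were higher and 6 lower (median -0.22), and genes of MHC class II presentation were among those that fell. HLA-DRA, an MHC class II chain, had 1612, 1630 and 2086 CPM with amiloride and 3793, 3922 and 4154 CPM with DMSO (-1.16 ± 0.10, adjusted p = 4.43e-06). HLA-DMA, which loads peptides, was at -1.23 ± 0.07 and CD74, the invariant chain, at -0.60 ± 0.12. ICAM1, an adhesion molecule, rose by 0.54 ± 0.10. CRBN, the target of lenalidomide and not a surface protein, rose by 0.24 ± 0.07. Among 10 immunoglobulin and secretion genes, 1 was higher and 5 lower (median -0.37), and the light-chain constant genes among them have near-identical copies and are uncertain.

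MYC fell, and most ribosome biogenesis genes were called higher. MYC had 1366, 1215 and 1176 CPM with amiloride and 1912, 1928 and 1987 CPM with DMSO (-0.63 ± 0.07, adjusted p = 3.8e-05). Of its 12 network members, 3 were higher and 4 lower (median 0.03), with the partner MLX at 0.57 ± 0.07. Of 50 ribosome biogenesis genes, many of them known MYC targets, 34 were higher and 4 lower (median 0.31). NOP2, which methylates ribosomal RNA, had 182, 171 and 175 CPM with amiloride and 102, 87.9 and 79.2 CPM with DMSO (0.97 ± 0.09, adjusted p = 7.31e-06). DDX56, a nucleolar helicase, rose by 0.98 ± 0.10, RRS1 by 0.90 ± 0.09, PNO1 by 0.79 ± 0.07 and RRP1 by 0.75 ± 0.08.

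Most ribosomal protein genes were called lower. Of 77 tested, 3 were higher and 47 lower (median -0.29), with 0 higher without amiloride replicate 3, DMSO replicate 2 or DMSO replicate 3 and 1 without amiloride replicate 1, and their sum was 33117, 31728 and 30795 CPM with amiloride and 40190, 37322 and 39990 CPM with DMSO. RPS12 had 206, 193 and 198 CPM with amiloride and 418, 401 and 335 CPM with DMSO (-0.95 ± 0.09, adjusted p = 6.81e-06), and RPL13A was at -0.69 ± 0.08. These genes have many processed copies among which reads can be split. Of 187 tested pseudogenes of ribosomal proteins, 78 (41.7%) were lower and 5 (2.67%) higher (median -0.43). Of all 1354 processed pseudogenes, 325 (24%) were lower and 38 (2.81%) higher (median -0.24). The share called lower among processed pseudogenes was thus near the 23.9% of all tested genes, and the share called higher was below their 19.7%. The part of read placement in these changes was not tested. Of 38 proteasome genes, 15 were higher and 2 lower (median 0.21), with PSMD6 at 0.83 ± 0.08 and PSMC2 at 0.72 ± 0.10.

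Mitosis genes fell by a modest amount. Of 48 tested, 34 were lower and 0 higher (median -0.40). The list summed to 5480, 6143 and 5228 CPM with amiloride and to 6993, 7451 and 7150 CPM with DMSO. KIF20A, a kinesin of cytokinesis, had 27.8, 35.7 and 29.9 CPM with amiloride and 64.3, 63.0 and 59.0 CPM with DMSO (-0.99 ± 0.10, adjusted p = 9.37e-06). CCNB2, a mitotic cyclin, had 73.8, 71.4 and 57.7 CPM with amiloride and 113, 116 and 112 CPM with DMSO (-0.75 ± 0.09, adjusted p = 5.36e-05). The groups were apart in both. CENPM, a centromere protein, was at -1.31 ± 0.10, KIF18A, which aligns chromosomes, at -0.80 ± 0.11, CDK1 at -0.61 ± 0.12 and the proliferation marker MKI67 at -0.39 ± 0.10 (adjusted p = 0.00981).

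The promoters of KIF18A and CCNB2 are shown for the cell cycle genes homology region (CHR), an element of many mitosis genes. The letters searched were TTTGAA and TTCGAA on both strands, in the same RefSeq windows, and capitals mark the match in KIF18A (chr11:28108107-28108406, minus strand) and CCNB2 (chr15:59104896-59105195, plus strand).
KIF18A: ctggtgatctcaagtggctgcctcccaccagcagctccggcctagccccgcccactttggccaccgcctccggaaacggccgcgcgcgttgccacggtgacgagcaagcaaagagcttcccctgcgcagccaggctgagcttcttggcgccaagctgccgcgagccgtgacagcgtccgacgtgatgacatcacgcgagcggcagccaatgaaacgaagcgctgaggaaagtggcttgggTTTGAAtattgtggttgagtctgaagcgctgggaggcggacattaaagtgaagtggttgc
CCNB2: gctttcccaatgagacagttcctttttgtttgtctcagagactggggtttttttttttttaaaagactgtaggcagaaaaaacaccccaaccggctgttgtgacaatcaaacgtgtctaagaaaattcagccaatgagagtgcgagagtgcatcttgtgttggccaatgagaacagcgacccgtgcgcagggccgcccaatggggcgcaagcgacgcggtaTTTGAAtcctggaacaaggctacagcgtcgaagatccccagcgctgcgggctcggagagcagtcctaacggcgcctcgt
Of the 34 called lower mitosis genes, 29 had a window, and 21 of these (72.4%) held a match, against 16.6% of all windows and 1 of 39 (2.56%) of those of the glycolysis and hypoxia genes. The window of KIF20A, which fell more in point value than KIF18A and CCNB2, held none. The CCAAT box, CCAAT on both strands, was in 21 of the 29 mitosis windows (72.4%) and in 35.7% of all. Because the CHR is an element of many mitosis genes, these shares describe the list and not the response to amiloride. Windows of mitosis genes that were not called lower were not counted apart from all windows.

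Of the DNA replication and repair genes, more were called lower than higher. Of 49 replication genes, 24 were lower and 2 higher (median -0.30), or 20 and 3 without amiloride replicate 3 (median -0.16). TK1, thymidine kinase, had 142, 145 and 114 CPM with amiloride and 302, 285 and 290 CPM with DMSO (-1.13 ± 0.11, adjusted p = 1.02e-05). RRM2, of ribonucleotide reductase, was at -1.03 ± 0.11, LIG1, the replicative ligase, at -1.14 ± 0.08 and CDC45 at -1.11 ± 0.13. Of 38 Fanconi and recombination genes, 23 were lower and 3 higher (median -0.31), with FANCD2 at -1.03 ± 0.09 and RAD51D at -1.04 ± 0.09. Of 27 G1 to S regulators, 4 were higher and 9 lower (median -0.08). The higher count was 2 without amiloride replicate 2 or DMSO replicate 2 and 1 without DMSO replicate 3. SKP2, which marks cell cycle inhibitors for degradation, fell by 1.22 ± 0.11, and the inhibitor CDKN2D rose by 0.94 ± 0.17. Of 50 listed replication-dependent histone genes, only 16 were tested, and for most of the others no identifier was found. Of the 16, 7 were higher and 0 lower (median 0.47). Some of these were near the floor, such as H1-3 with a mean of 0.456 CPM with amiloride and 0.108 CPM with DMSO. H4C8 rose by 1.35 ± 0.13 and H2BC5 by 1.16 ± 0.13. Their messengers normally lack poly(A) tails, so poly(A) libraries see a small share of them.

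**Figure D4:**
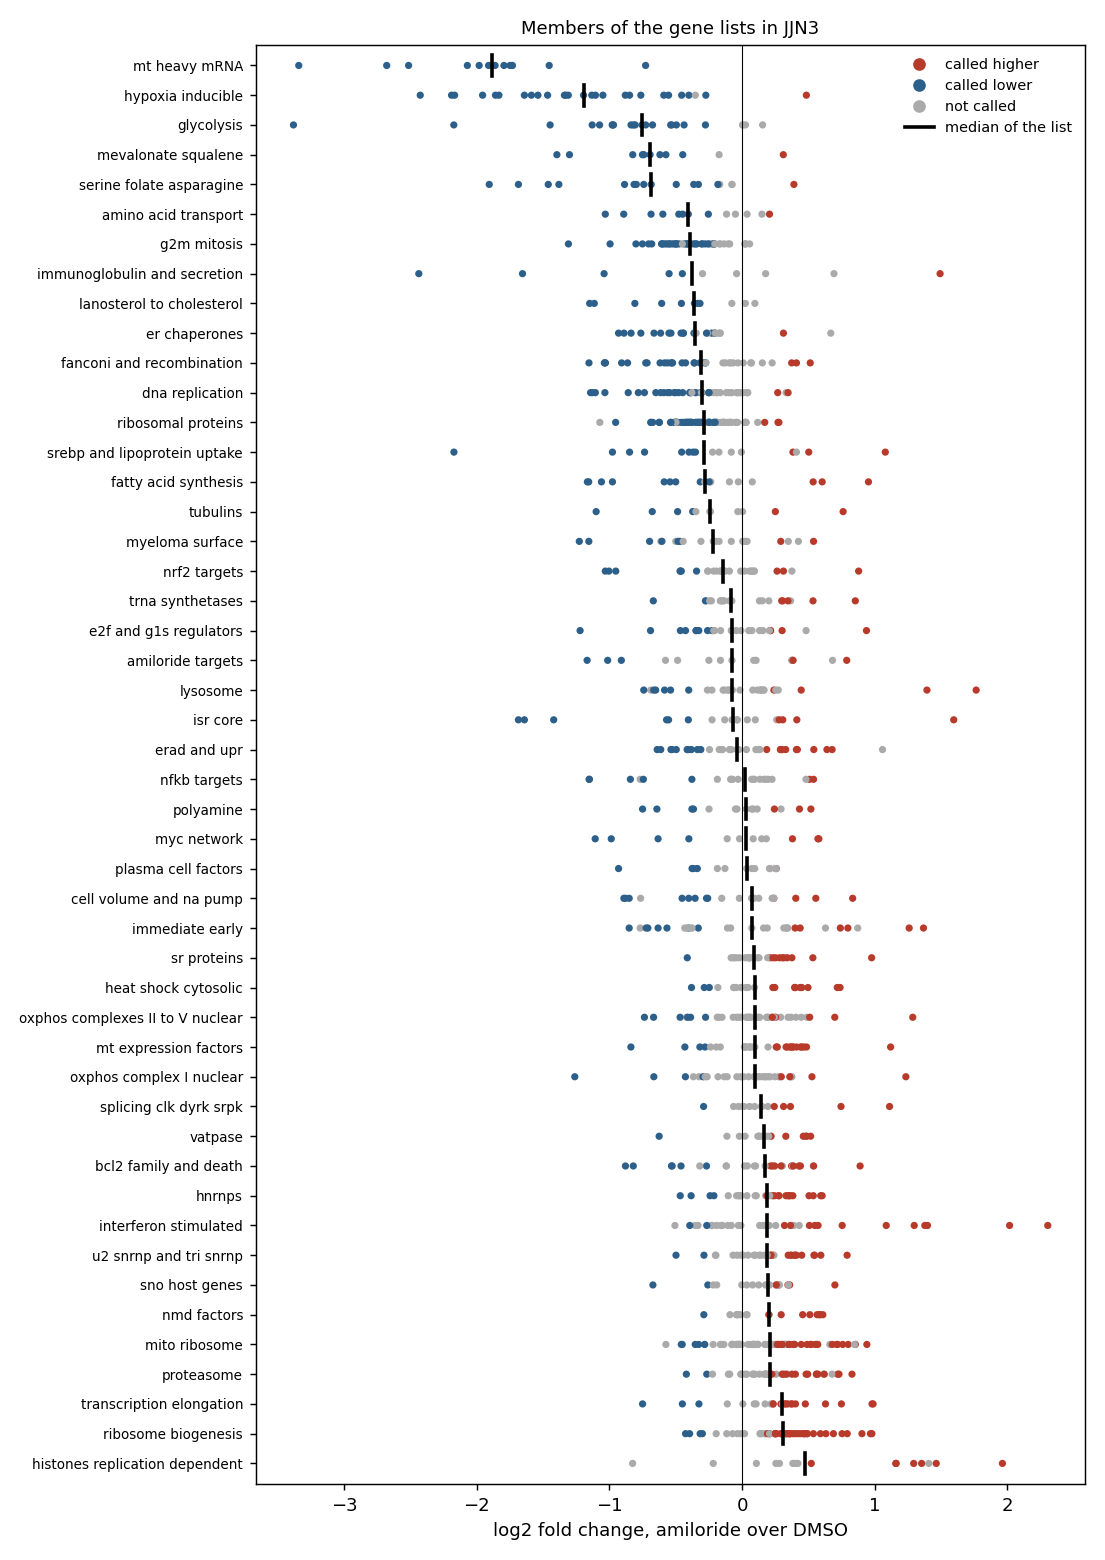
Each row is a gene list with at least 10 tested members, apart from the marker lists, the ZNF genes and a list not reported here, ordered by its median (black bar), and each point is a member's log2 fold change of amiloride over DMSO, in red or blue where called higher or lower and grey where not called. The heavy-strand messengers (-1.89) and the hypoxia-inducible genes (-1.20) have the lowest medians, and the replication-dependent histones (0.47) and ribosome biogenesis genes (0.31) the highest. Of the 50 listed histone genes only 16 were tested.

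In the lists of splicing and RNA surveillance, more members were called higher than lower, though many were not called. Of 15 kinases of the CLK, DYRK and SRPK families, 5 were higher and 1 lower (median 0.15). CLK1, which phosphorylates SR proteins, had 48.8, 46.6 and 68.4 CPM with amiloride and 22.95, 26.9 and 26.0 CPM with DMSO (1.11 ± 0.14, adjusted p = 8.93e-05), amiloride replicate 3 being the highest. PRPF4B rose by 0.75 ± 0.07. Of 33 proteins of the U2 and tri-snRNP particles, 14 were higher and 2 lower (median 0.19), with PRPF3 at 0.79 ± 0.07 and SF3B1 at 0.45 ± 0.07. Of 27 SR and related proteins, 10 were higher and 1 lower (median 0.09). LUC7L rose by 0.98 ± 0.09, and SRSF1 was at 0.06 ± 0.09 (adjusted p = 0.63). Of 29 hnRNP proteins, 14 were higher and 4 lower (median 0.19), or 2 lower without amiloride replicate 1, amiloride replicate 2 or DMSO replicate 2. Of 17 nonsense-mediated decay factors, 8 were higher and 1 lower (median 0.20), with UPF2 at 0.61 ± 0.07. Counts per gene do not show splicing itself.

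Of 24 genes of transcription elongation, 14 rose and 3 fell (median 0.30). HEXIM1, which holds the elongation kinase P-TEFb inactive, had 184, 151 and 160 CPM with amiloride and 92.6, 78.2 and 79.9 CPM with DMSO (0.98 ± 0.09, adjusted p = 8.95e-06). HEXIM2, its paralog, was at 0.99 ± 0.14, LARP7, which binds the same small RNA complex, at 0.75 ± 0.09 and CDK13 at 0.63 ± 0.08. AFF1, a scaffold of the super elongation complex, fell by 0.75 ± 0.07.

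Of 34 interferon-stimulated genes, 12 rose and 2 fell (median 0.19), or 9 and 5 without amiloride replicate 3 and 7 and 2 without DMSO replicate 3. Beside ZBP1, OAS3, an activator of RNase L, had 5.92, 4.91 and 5.09 CPM with amiloride and 2.17, 2.23 and 1.64 CPM with DMSO (1.38 ± 0.16, adjusted p = 3.12e-05). GBP1 rose by 1.398 ± 0.28 and IFITM1 by 0.76 ± 0.10. Among 22 NF-kappaB targets, 2 (9.09%) were higher and 5 (22.7%) lower (median 0.02), against 19.7% and 23.9% of all tested genes. BIRC3, an apoptosis inhibitor, had 610, 672 and 623 CPM with amiloride and 1155, 1397 and 1680 CPM with DMSO (-1.15 ± 0.12, adjusted p = 1.38e-05). TNFAIP3, the feedback inhibitor A20, fell by 0.84 ± 0.14, and CYLD, another deubiquitinase of the pathway, rose by 0.51 ± 0.06. Of 29 immediate-early genes, 6 (20.7%) were higher and 7 (24.1%) lower (median 0.07), shares near those of all tested genes. When 1 library was left out, 4 to 8 of the immediate-early genes were higher and 4 to 11 lower. Among them, DUSP6, a phosphatase of ERK, was at 0.74 ± 0.08 and SGK1, a kinase that promotes sodium uptake, at -0.85 ± 0.11.

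Cell death genes moved in both directions. Of 27, 10 were higher and 6 lower (median 0.17). The antiapoptotic MCL1 had 707, 695 and 736 CPM with amiloride and 475, 548 and 566 CPM with DMSO (0.43 ± 0.09, adjusted p = 0.00229). BBC3, encoding PUMA, fell by 0.88 ± 0.20, BCL2L11, encoding BIM, was at -0.12 ± 0.08 (adjusted p = 0.227), the death receptor TNFRSF10A rose by 0.89 ± 0.12, and the initiator caspases split, with CASP8 at 0.44 ± 0.08 and CASP10 at -0.82 ± 0.07. CDKN1A, encoding the cell cycle inhibitor p21, fell by 0.69 ± 0.16.

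Among 7 targets of the aryl hydrocarbon receptor, 4 were higher and 0 lower (median 0.35). CYP1B1, a monooxygenase, had 26.0, 24.8 and 19.3 CPM with amiloride and 7.33, 9.10 and 7.57 CPM with DMSO (1.54 ± 0.13, adjusted p = 4.63e-06). CYP1A1 had 4.86, 5.16 and 3.86 CPM with amiloride and 1.25, 1.117 and 1.64 CPM with DMSO (1.81 ± 0.20, adjusted p = 2.68e-05), and the receptor gene AHR rose by 0.35 ± 0.07. NQO1, shared with the oxidative stress factor NRF2, rose by 0.88 ± 0.18. Of 26 NRF2 targets, 3 were higher and 7 lower (median -0.14), with GCLC, for glutathione synthesis, at -1.004 ± 0.11. Of 23 heat shock genes, 10 were higher and 3 lower (median 0.09), DNAJB6 by 0.72 ± 0.08.

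Levels were uneven among the genes of the channels and exchangers that amiloride blocks. SCNN1A, the epithelial sodium channel alpha subunit, had at most 1 read in a library and was not tested. Of 15 tested amiloride-sensitive proteins, 3 (20%) were higher and 3 (20%) lower (median -0.08), against 19.7% and 23.9% of all tested genes. SLC9A9, the exchanger of recycling endosomes, had 65.8, 71.6 and 94.8 CPM with amiloride and 42.8, 42.9 and 48.9 CPM with DMSO (0.79 ± 0.13, adjusted p = 0.00044). The groups were apart, with amiloride replicate 3 the highest library. ASIC1, an acid-sensing channel, fell by 0.91 ± 0.15.

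Of 23 genes of cell volume and sodium pumping, 4 were higher and 8 lower (median 0.07). SLC12A2, the sodium-potassium-chloride importer NKCC1, had 49.1, 53.6 and 51.0 CPM with amiloride and 26.8, 29.9 and 29.5 CPM with DMSO (0.83 ± 0.08, adjusted p = 8.1e-06). The potassium-chloride exporter SLC12A4 fell by 0.88 ± 0.11, and the bicarbonate transporters split, SLC4A7 falling by 0.89 ± 0.14 and SLC4A2 rising by 0.56 ± 0.08. Of 17 proton pump subunits, 6 were higher and 1 lower (median 0.17). Of 29 lysosomal genes, 4 (13.8%) were higher (2 without amiloride replicate 1) and 6 (20.7%) lower (median -0.07). CTSZ stood against HEXA (-0.74 ± 0.10) and GUSB (-0.65 ± 0.08). Of 15 polyamine genes, 3 were higher and 4 lower (median 0.03; 2 lower without amiloride replicate 3 or DMSO replicate 1), with OAZ1, the antizyme that removes ornithine decarboxylase, at -0.75 ± 0.10. Of 11 tubulin genes and regulators, 2 were higher and 4 lower (median -0.24), TUBB by -0.68 ± 0.08, with near-identical copies. Of 20 host genes of small nucleolar RNAs, 5 were higher and 2 lower (median 0.20). Of 234 ZNF genes on chromosome 19, 28 (12%) were higher and 53 (22.6%) lower (median -0.08), against 19.7% and 23.9% of all tested genes.

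The response of JJN3 was set against that of KMS12-BM by the interaction of drug and line in a fit of all 18 libraries. The dose was 0.4 mM in JJN3 and 0.1 mM in KMS12-BM, so line, dose and serum cannot be told apart. Of 17772 tested genes, 7681 (43.2%) differed in their response, with 3846 (21.6%) above and 3835 (21.6%) below in JJN3. The heavy-strand messengers fell less in JJN3, with a median of -1.89 against -5.22 in KMS12-BM, and the difference was called above 0 for 12 of 12. MT-CO1 differed by 3.21 ± 0.32 (adjusted p = 1.69e-06). MT-ND6 was at 4.01 in JJN3 and 2.70 in KMS12-BM, a difference of 1.31 ± 0.57 that was not called (adjusted p = 0.0833).

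Glycolysis had a like median in both lines, -0.75 in JJN3 and -0.87 in KMS12-BM, with 9 of 23 members above and 3 below in JJN3. LDHA was at -0.75 and -0.76, with a difference of 0.01 ± 0.12 (adjusted p = 1). The other hypoxia-inducible genes parted from it: their median was -1.20 in JJN3 and 0.05 in KMS12-BM, and 16 of 27 were below and 1 above in JJN3. PDK1 differed by -1.09 ± 0.16 (adjusted p = 1.03e-05), and HIF1A, at 0.49 in JJN3 and 1.61 in KMS12-BM, by -1.12 ± 0.12 (adjusted p = 3.5e-07). The core stress response genes had a median of -0.07 in JJN3 and 1.20 in KMS12-BM, with 16 of 19 below and 1 above. DDIT3 differed by -2.84 ± 0.31 (adjusted p = 1.86e-06). The serine, folate and asparagine genes had medians of -0.69 and 0.51, with 13 of 17 below and 3 above, and PHGDH differed by -2.13 ± 0.25 (adjusted p = 5.08e-06).

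Cell cycle lists differed in opposite ways. Mitosis genes had a median of -0.40 in JJN3 and 0.12 in KMS12-BM, with 27 of 48 below and 4 above in JJN3. DNA replication genes had a median of -0.30 in JJN3 and -0.81 in KMS12-BM, with 26 of 49 above and 1 below, and TK1 differed by 1.22 ± 0.15 (adjusted p = 1.14e-06). Ribosome biogenesis genes had medians of 0.31 in JJN3 and -0.07 in KMS12-BM, with 24 of 50 above and 4 below. The sterol lists had the lower medians in KMS12-BM. Enzymes from acetyl-CoA to squalene had a median of -0.69 in JJN3 and -1.29 in KMS12-BM, with 7 of 11 above and 1 below in JJN3, and those from lanosterol to cholesterol -0.36 and -1.28, with 6 of 11 above and 0 below. INSIG1 went the other way and fell further in JJN3, with a difference of -1.48 ± 0.27 (adjusted p = 0.000295), while HMGCS1 differed by 0.19 ± 0.21 (adjusted p = 0.522). ZBP1 was at 2.31 in JJN3 and 0.24 in KMS12-BM, a difference of 2.07 ± 0.32 (adjusted p = 3.87e-05).

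**Figure D5:**
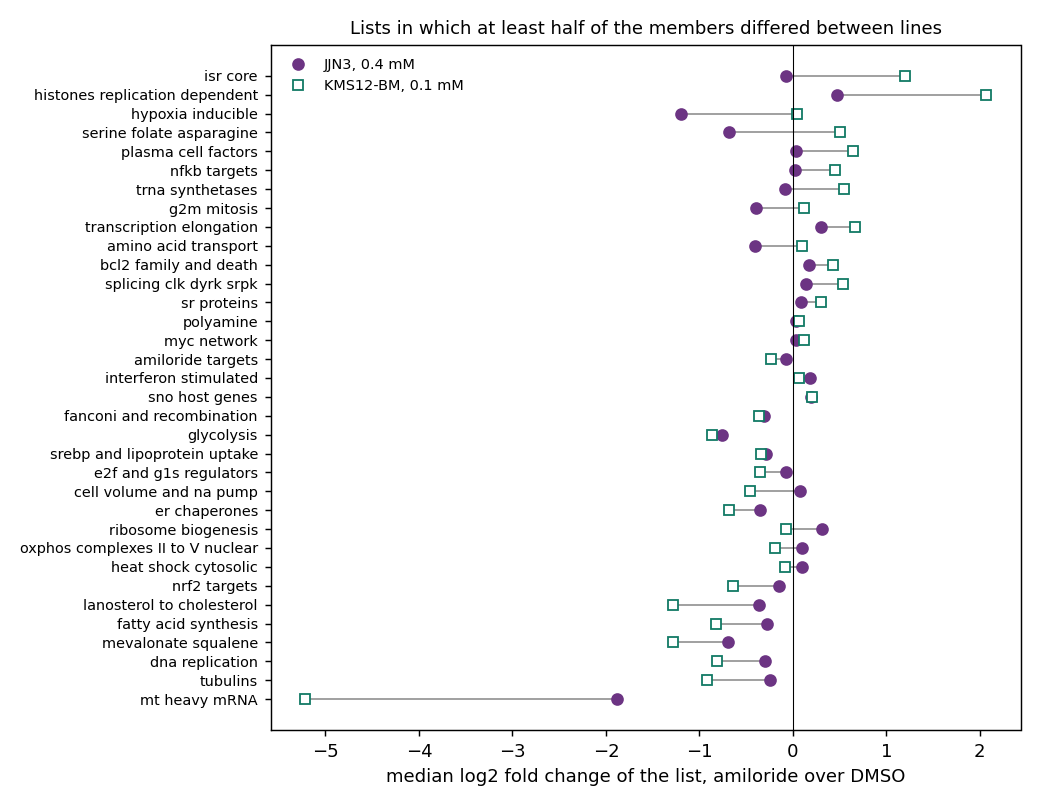
Median log2 fold change of amiloride over DMSO in JJN3 (filled circles, 0.4 mM) and in KMS12-BM (open squares, 0.1 mM) for lists of 10 or more tested genes in which the response of at least 50% of the members differed between the lines, ordered by the median difference. The heavy-strand messengers fell further in KMS12-BM (-5.22) than in JJN3 (-1.89), and the core stress response genes lie at 1.20 in KMS12-BM and -0.07 in JJN3.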

How the data were processed

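Per the submitters' processing notes, the authors used cutadapt 1.4, TopHat2 2.0.11 with hg19, HTSeq 0.6.1p1 and DESeq2 1.12.4. For annotation, alignment options and counting strand, the setting is not given in the sources used here. Each count file, as deposited by the authors, gives raw read counts for 57905 Ensembl genes of 1 library. HTSeq's records of reads given to no gene stayed out of library sizes and tests; in the 6 libraries 11.4% to 12.4% of records fell in no gene, 2.19% to 2.35% in more than 1 gene and 14.7% to 17.4% at more than 1 place. The deposited table of normalized signal for JJN3 lists 23044 genes and was used only to check that its values are the authors' counts divided by 1 factor per library, which held within 0.496% for counts of at least 500. A further 12 per-sample columns in other deposited tables were not used.

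Symbols, classes and GRCh37 coordinates came from GENCODE 44, which matched 55538 identifiers and gave 43521 a symbol. edgeR 4.0.16 in R 4.3.3 was fitted to the 9 JJN3 libraries (filterByExpr with a minimum count of 10, TMM scaling, robust quasi-likelihood F test), and the line difference to all 18. Genes were called at a Benjamini-Hochberg adjusted p under 0.05. The standard error is the size of the log2 fold change divided by the square root of F, an approximation. The kit had no molecular identifiers, so reads are not counts of molecules. The test of amiloride against DMSO in JJN3 was tried on simulated data with known changes, in far fewer genes than were called here. That trial cannot show how scaling and calls behave when so many genes change.

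The comparison, the 59 gene lists and the rules were chosen with earlier results of these data known. Named were the 12 largest rises and falls among called genes that have a symbol, average 5 CPM or more and do not overlap between the groups, up to 3 called members per list with the largest changes, all mitochondrially encoded genes and a set of myeloma and pathway genes; other named genes were chosen after their values were seen. Lists are described by counts and medians, with no set test. Some genes and a list are not reported here. Promoter windows are from RefSeq. Libraries of a group differed by more than counting noise. The labels give each library its own number, and each run of 6 consecutive numbers holds 1 library of every group. The deviations from the group means of the amiloride and DMSO libraries of a run correlated at 0.1, 0.051 and 0, so the runs were not taken as pairs.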

Additional observations from a re-analysis of the deposited data

Results flagged for a closer look

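Among the named genes, those listed here were called in both lines with opposite signs and with a line difference of at least 2 on the log2 scale that passed the interaction test of edgeR. Each difference is the log2 fold change of amiloride over DMSO in JJN3 (0.4 mM) minus that in KMS12-BM (0.1 mM), and dose and line cannot be told apart.

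Higher in JJN3 and lower in KMS12-BM were 4 of the genes listed here. The noncoding RNA TMEM167B-DT differed by 3.35 ± 0.25 (1.53 in JJN3 and -1.81 in KMS12-BM), and CYP1A1 by 3.05 ± 0.21 (1.81 in JJN3 and -1.24 in KMS12-BM). NQO1 differed by 2.12 ± 0.25 (0.88 in JJN3 and -1.23 in KMS12-BM). The mitochondrial ribosomal protein gene MRPL23 differed by 2.01 ± 0.51 (0.85 in JJN3 and -1.15 in KMS12-BM), and its call in JJN3 was lost under 4 alternatives, among them without amiloride replicate 1 (0.78) and without amiloride replicate 2 (0.73).

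Lower in JJN3 and higher in KMS12-BM were 8 genes. The transcription factor gene TP73 differed by -4.73 ± 0.74 (-1.04 in JJN3, 3.69 in KMS12-BM, adjusted p = 4.2e-05). The enzymes of cysteine and arginine synthesis CTH and ASS1 differed by -3.27 ± 0.31 and -3.04 ± 0.42, and ALDH1L2 of mitochondrial folate metabolism by -2.35 ± 0.22. BBC3, encoding PUMA, differed by -2.49 ± 0.29, the tRNA synthetase gene CARS1 by -2.22 ± 0.19, the cystine importer SLC7A11 by -2.18 ± 0.27 and VEGFA by -2.11 ± 0.18.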

How the results depend on the processing

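The count of 6842 called genes kept within 1.5 times under every alternative tried. It was 5665 to 6346 with 1 library left out, 6671 with DESeq2 1.42.0, 6935 with limma voom 3.58.1 and 6227 in a fit of the 6 compared libraries alone. With the runs of library numbers as a replicate block it was 7425, with 3372 higher and 4053 lower. The other alternatives (median-of-ratios and upper-quartile factors, no filter, 1 CPM in 3 libraries, removal of the 10 most abundant genes or of chromosome M) gave 6469 to 6855. The count for the line difference was 7073 to 8257, and 7923 with the block. Of 294 named genes, 260 kept direction and call under every alternative. PRDM1 was called with DESeq2 (-0.34), limma voom (-0.38) and without amiloride replicate 1 (-0.49), SDC1 with the block (-0.20) and without DMSO replicate 1 (-0.25), and TNFRSF17 with limma voom (-0.56). The block raised the calls of NF-kappaB targets to 6 higher, of tRNA synthetases to 5 lower and of complex I subunits to 7 higher. MT-RNR2 ranged from -0.116 to 0.298 and IRF4 from -0.251 to 0.005 with 1 library left out, and neither was called. The medians of 50 of 59 lists kept their sign. The cause of these changes was not tested.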

Other observations

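Base composition had a weak rank correlation with the log2 fold change, but the shares of called genes differed with it. Of 2407 protein-coding genes with a transcript GC content of 29.17% to 40.2%, 26% were higher and 20.1% lower (median 0.044). Of 2401 with 57.81% to 75.97%, 14.3% were higher and 32.5% lower (median -0.127). Over 12009 protein-coding genes, the log2 fold change correlated with transcript GC content at a Spearman's rho of -0.13 and with transcript length at 0.013, both across genes that share libraries. Of 1456 tested long noncoding RNAs, 265 (18.2%) were higher and 247 (17%) lower with amiloride (median 0.01), against 19.7% and 23.9% of all tested genes.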
